A study of Homo sapiens with 6 samples.

Results

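The protein synthesis machinery was read out here through the mRNA of its initiation and elongation factors in BT-549 cells, a human triple-negative breast cancer line. The cells carried a tetracycline-inducible shRNA against WDR5, a core subunit of the COMPASS complexes that methylate lysine 4 of histone H3. Doxycycline (DOX) switches the shRNA on. All 6 libraries came from this puromycin-selected population with 1 WDR5 shRNA in insulin-supplemented medium, 3 from cultures given vehicle (0.1% DMSO) and 3 from cultures given DOX at 500 ng/ml. The paper states a treatment of 7 days. Since cells with a control shRNA under DOX were not analysed here, an effect of DOX itself and an effect of WDR5 silencing cannot be told apart. The members were the genes whose symbols begin with EIF1 to EIF6, EEF1 or EEF2, except the EIF2AK kinases, EEF1E1, antisense genes and pseudogenes. This rule took 58 of the 19792 genes listed, and 7 further factor genes (EIF2S3B, EIF2D, EIF1AY, EIF3CL, EIF4E1B, EIF4A1 and EEF1AKNMT) were not analysed here.

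Translation of most mRNAs begins when eIF4E binds the cap, eIF4G and the helicase eIF4A join it, and a small ribosomal subunit arrives with eIF3 and the ternary complex of eIF2, GTP and initiator tRNA. After the start codon is found with the help of eIF1, eIF1A and eIF5, eIF5B joins the large subunit. In elongation eEF1A brings aminoacyl-tRNAs to the ribosome, the eEF1B subunits recharge eEF1A with GTP, and eEF2 moves the ribosome along. The best-known brakes on the system are phosphorylation of eIF2 alpha, the eIF4E-binding proteins and the eEF2 kinase.

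The values are those of the comparison the authors made with DESeq2, which lists for each gene a mean normalized count over the 6 libraries, the log2 fold change under DOX relative to vehicle and a standard error (SE). No value per library was analysed here. Depth per library is therefore unknown, whether the 3 and 3 cultures overlap cannot be shown, and the spread between cultures enters only through the SE. Levels of the 2 groups, where given, were derived by splitting the mean with the fold change for groups of equal size, and they are fitted and not measured per culture. A level under DOX is given as a percent of vehicle with its 95% interval, and a gene is called where the adjusted p is under 0.05. WDR5 itself, on chr9:134135365-134159968 (GRCh38), fell from 2013 to 273 normalized counts, to 13.6% of vehicle (95% interval 12.2 to 15.2%, adjusted p = 4.0e-270, n = 3 and 3). The mesenchymal markers VIM, ZEB1 and CDH2 had mean normalized counts of 47782, 7333 and 4093. Of the epithelial markers, KRT18 stood at 435, CDH1 at 59.6, KRT8 at 57.3 and EPCAM at 1.30. The receptors ESR1 and PGR stood at 0.790 and 0.801, whereas ERBB2 mRNA stood at 1221. The leukocyte, endothelial and hepatocyte markers PTPRC, PECAM1 and ALB stood at 44.7, 2.86 and 4.0. Because RNA came from whole cultures, fewer cells of a kind and less RNA per cell cannot be told apart.

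Many mRNAs of the translation machinery begin with a 5′ terminal oligopyrimidine (TOP) tract, a C followed by an unbroken run of pyrimidines through which LARP1 and the mTORC1 pathway control their translation. The sequence around the annotated start was therefore searched for a C followed by at least 4 pyrimidines. RefSeq start-site sequences (GRCh38.p14) were matched to 44 of the 58 members, and 11 of these 44 (25%) had such a start, against 585 of 11299 genes tested (5.18%). Of the 11, 4 were lower (EIF3D, EIF3M, EIF4A2, EEF2), 3 were higher (EIF2A, EIF3K, EEF1A1) and 4 were not called (EIF2S3, EIF3F, EIF4B, EEF1B2), with a median log2 fold change of 0.02. Members with this start thus stood on both sides of no change, as did all genes tested, of which 22.5% were lower and 24.3% higher. The windows below run from 10 bases before the annotated start to 20 bases from it, 5′ to 3′, and capitals mark the pyrimidine run. They show the starts of the most abundant factor, of factors called in each direction and of EEF1B2, followed by the factors with the largest fall and rise among the well expressed members, EEF1G and EIF4EBP2, whose annotated starts are not at a C.
EEF1A1: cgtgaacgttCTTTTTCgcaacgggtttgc
EEF2: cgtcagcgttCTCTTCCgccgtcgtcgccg
EIF3D: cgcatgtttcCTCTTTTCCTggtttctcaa
EIF4A2: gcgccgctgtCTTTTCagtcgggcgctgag
EIF2A: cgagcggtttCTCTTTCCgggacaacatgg
EIF3K: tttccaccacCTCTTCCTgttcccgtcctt
EEF1B2: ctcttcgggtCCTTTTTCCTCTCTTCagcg
EEF1G: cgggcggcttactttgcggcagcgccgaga
EIF4EBP2: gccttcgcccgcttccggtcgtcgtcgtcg
On the minus strand these windows lie at chr6:73521013-73521042 (EEF1A1), chr19:3985444-3985473 (EEF2), chr22:36529147-36529176 (EIF3D) and chr11:62573872-62573901 (EEF1G). On the plus strand they lie at chr3:186783567-186783596 (EIF4A2), chr3:150546777-150546806 (EIF2A), chr19:38619178-38619207 (EIF3K), chr2:206159885-206159914 (EEF1B2) and chr10:70404135-70404164 (EIF4EBP2). The starts are those of the annotation, and the starts used in these cells were not measured.

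Translation factor mRNAs moved in both directions, and mostly by little. Of the 58 members, 56 had an adjusted p, of which 16 were lower with DOX (28.6%, where 22.5% of all 15954 genes tested were lower) and 22 were higher (39.3%, where 24.3% of all were higher), and 18 were not called. Most members are highly expressed, and abundant genes are called more often. Among the 49 members whose mean normalized count reached 500, 13 were lower (26.5%) and 21 higher (42.9%), where 28.1% and 37.3% of the 7650 genes at that level were lower and higher. Against genes of like abundance the members' shares were thus near the background. The median log2 fold change of the 56 members was 0.08, with a median size of 0.24, against -0.01 and 0.31 for all genes tested. At mean normalized counts of 500 or more, these values lay closer, at 0.087 and 0.207 for members and 0.046 and 0.233 for genes. Among the well expressed, 34.7% of members and 39.0% of genes moved by 0.3 or more on the log2 scale. That size was reached by 21 called members, 11 lower and 10 higher.

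**Figure D1:**
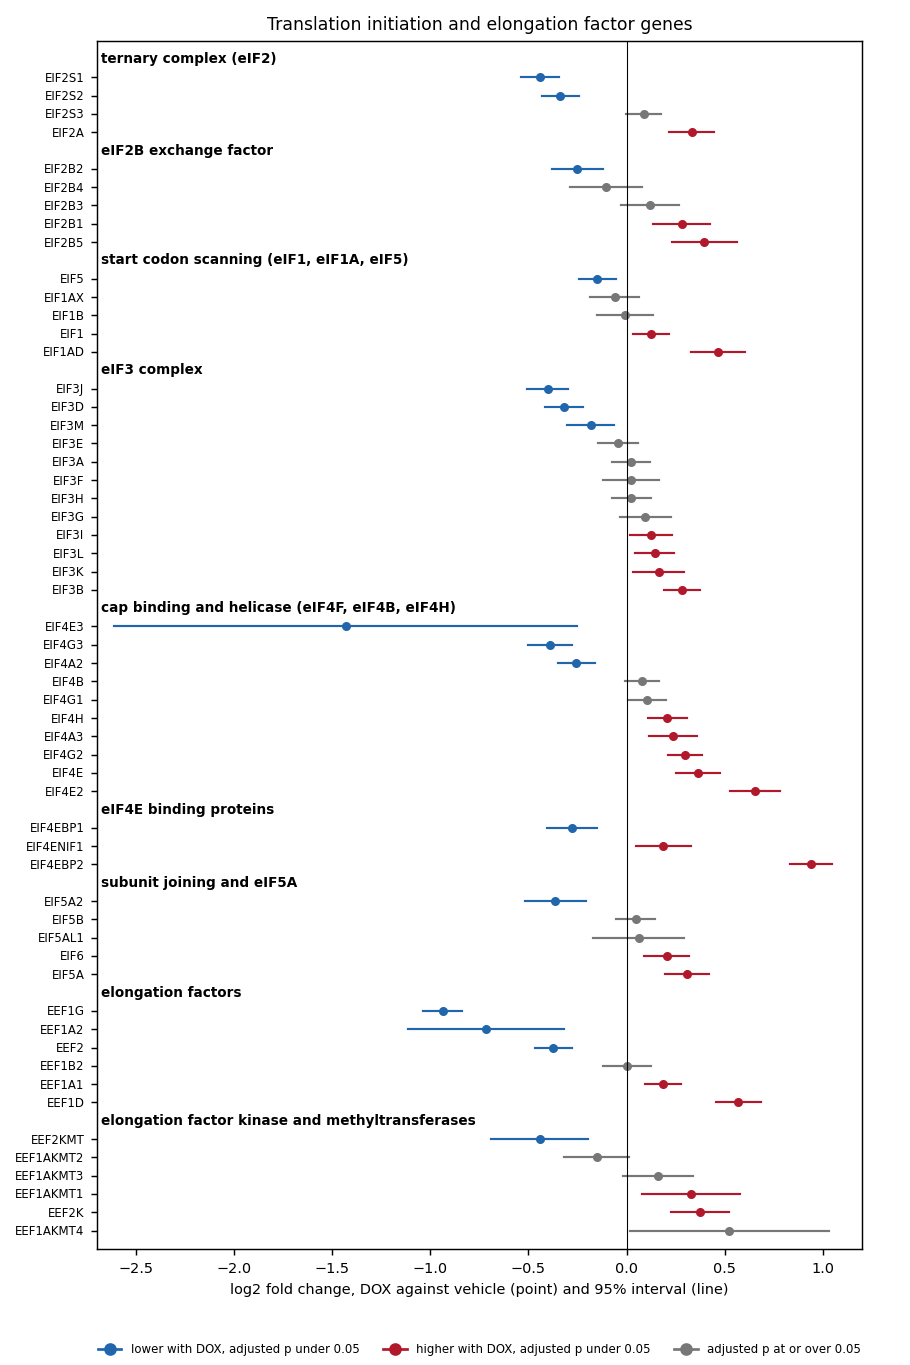
Log2 fold change under DOX relative to vehicle (point) with its 95% interval (line) for the 56 translation factor genes with an adjusted p, grouped by role and coloured by call. EEF1G and EIF4EBP2 lie farthest from 0 among the narrow intervals, at -0.94 and 0.94, and every role group holds genes on both sides of 0.

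The elongation factors had the largest median size of change among the role groups, 0.47 on the log2 scale. It was 0.31 for all genes tested and 0.233 for those at means of 500 or more. The 0.47 includes EEF1A2, at a mean of 94.1. Of 6 tested, 3 were lower, 2 were higher and 1 was not called. Over all genes 22.5% were lower and 24.3% higher, and 28.1% and 37.3% at means of 500 or more. With 6 genes, a departure from these shares was not tested. EEF1G, the gamma subunit of eEF1B, lies on the minus strand of chr11:62559596-62574086 and fell from 19600.1 to 10237 normalized counts, to 52.2% of vehicle (95% interval 48.8 to 55.9%; log2 fold change -0.94, SE 0.05, adjusted p = 1.7e-74). EEF1D, the delta subunit, moved the other way, from 5454 to 8097 normalized counts or 148% of vehicle (137 to 161%, adjusted p = 3.9e-21). The catalytic beta subunit EEF1B2 stayed at 100.2% (92.1 to 109%, adjusted p = 0.979). Subunits of 1 exchange complex thus differed in direction, and the 3 intervals did not overlap. On the same strand the gene body of EEF1G holds MIR6747 and 1 gene model without a symbol, whose reads could be counted apart or together, and gene models on the opposite strand of EEF1D include TIGD5. The libraries were stranded, but the strand setting of the counter is not given in the sources used here.

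Per kb of the canonical transcript, a scale that rests on the annotated length, EEF1G held 66.7% of the summed eEF1B level in vehicle and 46.9% under DOX. The share of EEF1D went from 12.8% to 25.6%, and that of EEF1B2 from 20.4% to 27.5%. These shares follow from the fitted levels and carry no interval of their own. They rest on canonical transcripts of 1446 bases for EEF1G, 2090 for EEF1D and 808 for EEF1B2, and the forms used in these cells were not measured. In normalized counts not divided by length, EEF1D stood at 8097 under DOX and EEF1B2 at 3355. EEF1G remained the most abundant of the eEF1B subunits per kb in both groups.

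EEF1A1, the tRNA-carrying factor, was the most abundant member by far, with 44405 normalized counts per kb. It rose from 145932 to 165968 normalized counts, or to 114% of vehicle (107 to 121%, adjusted p = 2.0e-04). Its paralog EEF1A2, which replaces it in muscle and neurons, fell to 60.9% (46.3 to 80.2%, adjusted p = 0.00135), from 117 to 71.3 normalized counts. The 2 intervals did not overlap, but the per-kb ratio of EEF1A1 to EEF1A2 was already 630 in vehicle and 1180 under DOX. Many processed copies of EEF1A1 lie in the genome, and reads shared with them could be assigned differently by another counter. EEF2, the translocase, fell from 40935 to 31571 normalized counts, to 77.1% of vehicle (72.2 to 82.4%, adjusted p = 1.0e-13). EEF2 hosts the small nucleolar RNA SNORD37 on the same strand.

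**Figure D2:**
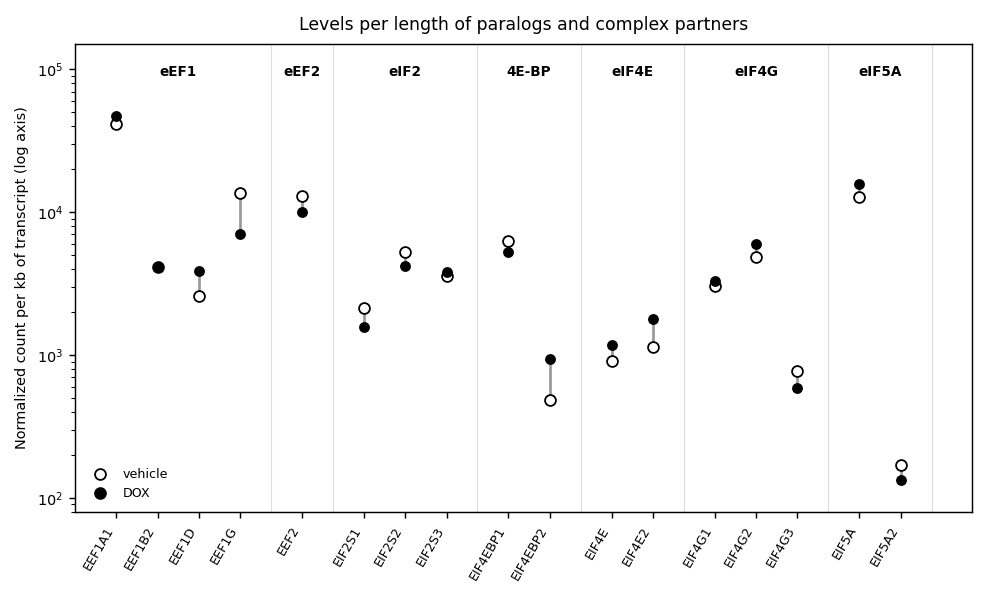
Fitted normalized counts per kb of canonical transcript (log axis) in vehicle (open) and DOX (filled) for paralogs and complex partners, each point derived from the mean of 6 libraries and the fold change, without an error bar of its own. The gap between EEF1G and EEF1D narrows from 13555 against 2609 to 7080 against 3874, and EIF4EBP2 moves from 486 to 933 while EIF4EBP1 moves from 6344 to 5239.

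The enzymes that modify elongation factors changed less evenly. EEF2K, the calcium-dependent kinase that phosphorylates eEF2 and stops it, rose to 130% of vehicle (117 to 144%, adjusted p = 3.1e-06). The mRNA of the kinase was thus higher where that of its substrate was lower, and the phosphorylation of eEF2 was not measured. EEF2KMT, a lysine methyltransferase of eEF2, fell to 73.6% (62.0 to 87.4%, adjusted p = 0.00151), and the eEF1A methyltransferase EEF1AKMT1 rose to 125% (105 to 149%, adjusted p = 0.0246). EEF2KMT overlaps ALG1 on the opposite strand, and EEF1AKMT1 overlaps the pseudogene RANP8 on its own strand. The remaining methyltransferases EEF1AKMT2, EEF1AKMT3 and EEF1AKMT4 were not called, with levels of 90%, 112% and 144% of vehicle. EEF1AKMT4 had a mean normalized count of 57.6 and an interval from 101% to 205%, so a change of that size was not resolved at this expression.

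In the ternary complex, the subunits eIF2 alpha and beta fell and gamma was not called. EIF2S1, which encodes the alpha subunit that stress kinases phosphorylate, fell from 8913 to 6562 normalized counts, to 73.6% of vehicle (68.8 to 78.8%, adjusted p = 1.2e-17). EIF2S2, the beta subunit, fell to 79.1% (74.1 to 84.5%, adjusted p = 2.9e-11). EIF2S3, the tRNA- and GTP-binding gamma subunit, stood at 106% (99.8 to 113%, adjusted p = 0.111), and its interval overlapped neither of theirs. EIF2A, a separate protein that can deliver initiator tRNA without eIF2, rose to 126% (116 to 136%, adjusted p = 5.1e-08). Per kb, the share of the gamma subunit in the summed eIF2 level was 32.5% in vehicle and 39.7% under DOX. Opposite-strand gene models overlap EIF2S2 (RALY) and EIF2A (SERP1).

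The 5 subunits of eIF2B, the factor that reloads eIF2 with GTP, also split. The catalytic epsilon subunit EIF2B5 rose to 132% (117 to 148%, adjusted p = 1.1e-05) and the alpha subunit EIF2B1 to 122% (110.0 to 134%, adjusted p = 4.9e-04), whereas the beta subunit EIF2B2 fell to 84.1% (76.7 to 92.1%, adjusted p = 6.6e-04). EIF2B3 and EIF2B4 were not called (adjusted p = 0.194 and 0.385). The highest and lowest of these intervals, those of EIF2B5 and EIF2B2, did not overlap.

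Changes were small in the scanning factors EIF1, EIF1B, EIF1AX and EIF5, and larger in EIF1AD, which was grouped with them by name and not by a tested role. This gene, named for its eIF1A-like domain, rose from 888 to 1225 normalized counts, to 138% of vehicle (125 to 152%, adjusted p = 2.8e-10). EIF1, which holds the scanning ribosome open, stood at 109% (102 to 116%, adjusted p = 0.0176), a call lost on centring the fold changes on the median gene (adjusted p = 0.0553), and its paralog EIF1B at 99.6% (90.3 to 110%, adjusted p = 0.960), and their intervals overlapped. EIF5, the GTPase activator of eIF2, fell to 90.3% (84.4 to 96.5%, adjusted p = 0.00694), and EIF1AX was not called (95.9% of vehicle, adjusted p = 0.470).

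The eIF3 complex, the largest initiation factor and the scaffold on the small subunit, changed by little. Of its 12 members tested, 3 were lower (25%), 4 were higher (33.3%) and 5 were not called, with a median log2 fold change of 0.02. All 12 had means above 500, where 28.1% of genes were lower and 37.3% higher. The counts thus did not set eIF3 apart from genes of like abundance. The falls were led by EIF3J, a loosely attached subunit near the decoding site, at 75.7% of vehicle (70.4 to 81.4%, adjusted p = 6.2e-13), and by EIF3D, the subunit with cap-binding activity, at 80.1% (74.9 to 85.7%, adjusted p = 7.8e-10). EIF3M stood at 88.1% (adjusted p = 0.00827). EIF3B, a core scaffold subunit, rose to 122% (114 to 130%, adjusted p = 6.9e-09), and its interval lay apart from that of EIF3J. EIF3I, EIF3K and EIF3L rose to between 109% and 112%, and the calls of EIF3I and EIF3K were lost on centring the fold changes on the median gene (adjusted p = 0.104 and 0.0643). EIF3A, EIF3E, EIF3F, EIF3G and EIF3H were not called, with 95% intervals that all lay between 90.5% and 117% of vehicle. EIF3C had a mean normalized count of 0.814 and no adjusted p. It has a near-identical copy, EIF3CL, so that its listed value is no measure of the subunit's mRNA.

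At the cap, EIF4E and EIF4E2 rose. EIF4E, the cap-binding subunit of eIF4F, rose from 2213 to 2850 normalized counts, to 129% of vehicle (119 to 139%, adjusted p = 1.9e-09). EIF4E2 (4EHP), which binds the cap but not eIF4G and represses bound mRNAs, rose further, to 157% (144 to 172%, adjusted p = 1.4e-22), and its interval did not overlap that of EIF4E. The third family member, EIF4E3, was near the detection limit with a mean normalized count of 10.2, and its 37.0% of vehicle had an interval from 16.3% to 84.1% (adjusted p = 0.0389). Its log2 fold change of -1.43 shrank to -0.50 under a normal prior, and an opposite-strand gene, GPR27, and a same-strand gene model overlap it.

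The eIF4G scaffolds moved apart. EIF4G1, the canonical scaffold, was not called at 107% of vehicle (100.4 to 115%, adjusted p = 0.0740). EIF4G2 (DAP5), which lacks the eIF4E-binding region, rose from 18578 to 22843 normalized counts, to 123% (116 to 131%, adjusted p = 2.0e-10), and EIF4G3 fell to 76.3% (70.7 to 82.4%, adjusted p = 4.0e-11). None of the 3 intervals overlapped another, although those of EIF4G1 and EIF4G2 nearly touched. Per kb, EIF4G2 made up 56.1% of the summed eIF4G level in vehicle and 60.8% under DOX, and EIF4G3 8.87% and 5.97%. Its long gene holds 3 other gene models on each strand.

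Of the helicase and its helpers, EIF4A2 fell to 83.8% of vehicle (78.4 to 89.5%, adjusted p = 7.5e-07). EIF4A3, a helicase of the exon junction complex, rose to 118% (108 to 128%, adjusted p = 5.4e-04). EIF4H, a cofactor of eIF4A, rose to 115% (108 to 124%, adjusted p = 1.6e-04), and the related cofactor EIF4B stood at 106% (99.4 to 112%, adjusted p = 0.143). The partner EIF4A1 being not analysed here, the summed eIF4A level is not given.

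The strongest rise of any well expressed member was in an inhibitor of eIF4F assembly. EIF4EBP2, on chr10:70404145-70428618, encodes a 4E-BP that competes with eIF4G for eIF4E until mTORC1 phosphorylates it, and it rose from 3642 to 6992 normalized counts, to 192% of vehicle (179 to 206%; log2 fold change 0.94, SE 0.05, adjusted p = 3.7e-67). Its paralog EIF4EBP1 fell to 82.6% (75.5 to 90.3%, adjusted p = 1.0e-04). No other listed pair of well expressed paralogs lay so far apart, with a difference of 1.22 between the log2 fold changes of EIF4EBP2 and EIF4EBP1. In level per kb, however, EIF4EBP1 remained ahead, with 92.9% of their summed level in vehicle and 84.9% under DOX. This order rests on canonical transcripts of 827 bases for EIF4EBP1 and 7491 for EIF4EBP2. In normalized counts not divided by length, EIF4EBP2 stood at 6992 under DOX and EIF4EBP1 at 4332. The transcript forms used in these cells were not measured. EIF4ENIF1, the eIF4E transporter that carries it into the nucleus, rose to 114% (103 to 126%, adjusted p = 0.0211). EIF4EBP3 had a mean normalized count of 1.48 and no adjusted p.

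Among the late factors, the eIF5A paralogs differed in direction. EIF5A, the hypusine-bearing factor that relieves stalled ribosomes, rose from 16213 to 20090 normalized counts, to 124% of vehicle (115 to 134%, adjusted p = 4.2e-07). EIF5A2 fell to 77.8% (69.8 to 86.7%, adjusted p = 2.6e-05), and EIF5AL1, an intronless copy, was not called (104%, 88.9 to 123%, adjusted p = 0.714). Since EIF5A held 98.7% of the level summed with EIF5A2 in vehicle and 99.2% under DOX, the fall of EIF5A2 hardly touched the sum. EIF6, which keeps the ribosomal subunits apart, rose to 115% (106 to 125%, adjusted p = 0.00141), and EIF5B, which joins them, was not called at 103% (96.3 to 111%, adjusted p = 0.499).

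Paralogs were compared in 10 listed pairs, and the 95% intervals lay apart in 9 of them, with EIF1 and EIF1B as the exception. The same share among other pairs of genes was not computed, so this count is not a trait of paralogs. Pairs within the EIF4E and EIF4G families share genes, and EIF4E3 was near the detection limit. Another 6 pairs of complex partners were chosen after their values were seen, so that their intervals lie apart follows from the choice. Both genes of a pair were measured in the same libraries, so the difference itself was not tested.

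**Figure D3:**
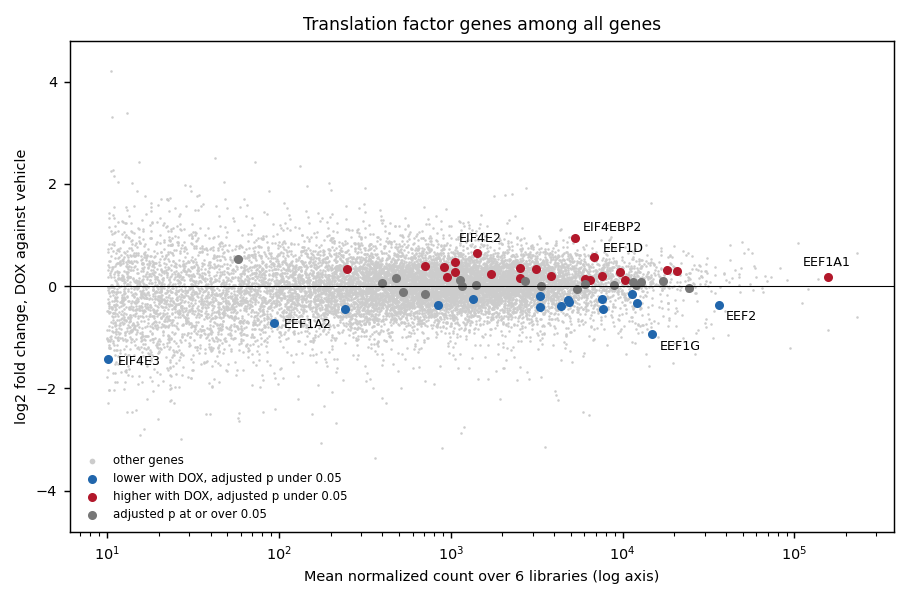
Log2 fold change under DOX relative to vehicle (vertical axis) against the mean normalized count over 6 libraries (log axis) for genes with a mean of at least 10 and an adjusted p (grey) and for the translation factors with an adjusted p (coloured by call). Most factors lie in the right part of the cloud at small changes, with EEF1A1 at a mean of 155950, and EEF1G, EIF4EBP2, EIF4E2 and EEF1D lie farther out at -0.94, 0.94, 0.65 and 0.57.

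The 250 bases before the annotated start were searched on both strands for 4 motifs, CACGTG (the E-box bound by MYC), TGACGTCA (the CRE bound by CREB and ATF factors), CCGGAA (an ETS core) and GGGCGG (the GC box bound by SP1). Matches to CCGGAA and GGGCGG can share bases. CACGTG was found in 5 of 19 higher members (EIF3K, EIF4A3, EIF4E, EIF4H, EEF2K), in 1 of 12 lower members (EIF5A2) and in 6 of 13 members not called, against 8.74% of the 11299 genes tested. Over all genes its share was 8.0% of 2714 lower and 10.1% of 3001 higher genes. CCGGAA was in 6 of the lower, 7 of the higher and 3 of the members not called (24.5% of all genes), and GGGCGG in 9, 14 and 9 (68.9% of all). TGACGTCA was found in EEF2 alone among the 44 members with a matched region, and in 2.87% of all genes. The regions of 3 members are printed 5′ to 3′ with the matches on either strand in capitals. EEF1G and EIF4EBP2 are shown as the well expressed members with the largest fall and rise, and EIF4E as the cap-binding factor with 2 matches to CACGTG.
EEF1G: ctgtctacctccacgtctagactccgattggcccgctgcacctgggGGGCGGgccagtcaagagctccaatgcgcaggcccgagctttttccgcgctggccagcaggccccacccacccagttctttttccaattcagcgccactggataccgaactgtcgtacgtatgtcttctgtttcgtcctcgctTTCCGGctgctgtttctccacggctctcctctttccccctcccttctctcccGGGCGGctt
EIF4EBP2: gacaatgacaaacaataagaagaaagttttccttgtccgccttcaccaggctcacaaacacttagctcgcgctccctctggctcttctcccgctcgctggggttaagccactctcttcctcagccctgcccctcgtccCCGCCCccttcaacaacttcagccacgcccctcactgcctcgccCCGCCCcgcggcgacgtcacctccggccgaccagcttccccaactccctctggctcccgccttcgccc
EIF4E: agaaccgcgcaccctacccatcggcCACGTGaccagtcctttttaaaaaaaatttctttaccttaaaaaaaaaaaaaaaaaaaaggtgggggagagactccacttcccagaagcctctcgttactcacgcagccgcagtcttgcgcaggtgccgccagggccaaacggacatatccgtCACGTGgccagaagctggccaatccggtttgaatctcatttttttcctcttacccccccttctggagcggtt
These regions (RefSeq, GRCh38.p14) lie at chr11:62573892-62574141 on the minus strand, chr10:70403895-70404144 on the plus strand and chr4:98929134-98929383 on the minus strand. EEF1G held 1 CCGGAA and 2 GGGCGG, and EIF4EBP2 held 2 GGGCGG. A match describes the letters of the window, and binding was not measured.

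Other genes of translation and its control were taken from a list of 43, of which 42 had an adjusted p. Of these, 5 were lower (11.9%), 13 higher (31.0%) and 24 not called. Over all genes tested, 22.5% were lower and 24.3% higher. Most of the list is well expressed, and at means of 500 or more 28.1% of genes were lower and 37.3% higher. Both shares of the list lay below those at this level. The largest change was in the eIF2 phosphatase. PPP1R15A (GADD34), the stress-induced subunit that directs phosphatase to eIF2 alpha, fell to 29.3% of vehicle (26.8 to 32.0%, adjusted p = 1.0e-163), and PPP1R15B, its constitutive counterpart, fell to 68.5% (63.4 to 74.0%, adjusted p = 1.5e-20). Of the kinases that phosphorylate the same site, EIF2AK2 (PKR) rose to 134% (121 to 149%, adjusted p = 1.9e-07) and EIF2AK1 (HRI) to 117% (109 to 124%, adjusted p = 9.9e-06), and EIF2AK3 and EIF2AK4 were not called (adjusted p = 0.0734 and 0.137). Both phosphatase subunits were thus lower, together with their substrate EIF2S1. The phosphorylation of eIF2 alpha was not measured.

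In the list of mTORC1, S6 kinase and MNK genes, 1 of 10 was lower and 3 were higher, or 10% and 30%. Beside them stand the same 22.5% and 24.3% of all genes. Most of the 10 are well expressed, and at means of 500 or more the shares of genes were 28.1% and 37.3%. The call of RPS6KB2, among the 3 higher, was lost on centring (adjusted p = 0.0676). MKNK1, a kinase that phosphorylates eIF4E, rose to 158% (136 to 183%, adjusted p = 2.1e-08), whereas MTOR and RPTOR were not called, at 105% and 106% of vehicle. PABPC4, a poly(A)-binding protein, rose to 142% (133 to 152%, adjusted p = 5.7e-23), PABPC1 to 113% (106 to 120%, adjusted p = 2.0e-04) and the TOP mRNA regulator LARP1 to 113% (105 to 121%, adjusted p = 0.00357). LARP4, which protects poly(A) tails, fell to 79.5% (67.2 to 94.0%, adjusted p = 0.0181). In termination and recycling, ABCE1, the ATPase that splits ribosomes, rose to 157% (146 to 170%, adjusted p = 2.3e-28), and the release factor genes ETF1 and GSPT1 were not called, at 101% and 98.9%.

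The mitochondrial system has its own factors, and 4 of 9 were higher (44.4%) and the other 5 not called, where 24.3% of all genes and 37.3% of genes with a mean of 500 or more were higher. TUFM, the mitochondrial counterpart of eEF1A, rose to 130% (121 to 140%, adjusted p = 7.4e-11), and its exchange factor TSFM rose to 126% (115 to 138%, adjusted p = 2.0e-06). GFM2, for ribosome recycling, rose to 124% (112 to 137%, adjusted p = 6.9e-05), and GFM1, the translocase, to 112% (104 to 122%, adjusted p = 0.0122). GFM1 thus stood above vehicle where its cytosolic counterpart EEF2 stood at 77.1%. The enzymes that make the hypusine of eIF5A, DHPS and DOHH, stood at 90.5% (82.2 to 99.7%, adjusted p = 0.0863) and 102% (79.5 to 130%, adjusted p = 0.937). On centring, DHPS was called lower (adjusted p = 0.0440).

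**Figure D4:**
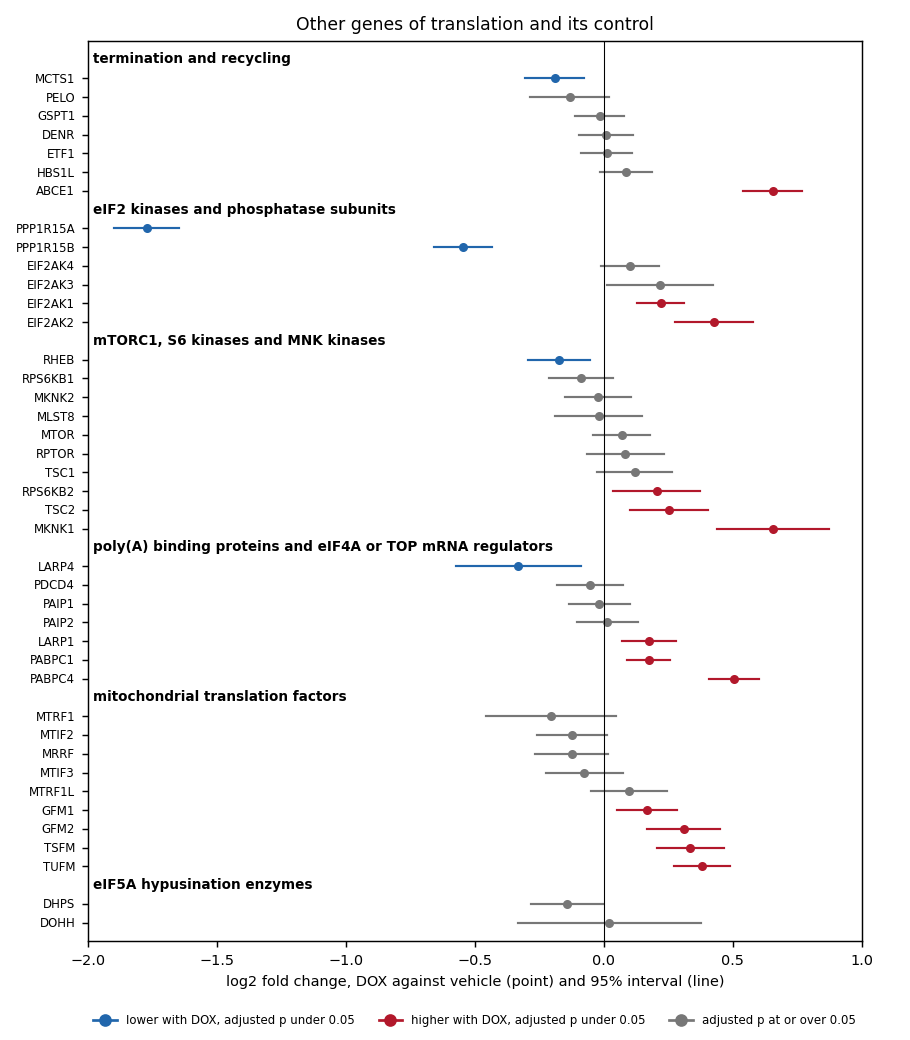
Log2 fold change under DOX relative to vehicle (point) with its 95% interval (line) for other genes of translation and its control, grouped by role and coloured by call; PAIP2B, at a mean normalized count of 5.88 and a log2 fold change of 0.42, is not drawn because its interval leaves the axis. PPP1R15A lies apart at -1.77, and ABCE1, MKNK1 and PABPC4 lie highest at 0.65, 0.66 and 0.51.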

How the data were processed

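RNA was isolated from triplicate cultures by the authors, who prepared stranded mRNA libraries, aligned them to GRCh38 with STAR and compared gene counts with DESeq2. For RNA extraction the labels name a column kit, whereas Trizol appears in the paper. Counter and software versions are not given in the sources used here. For each gene the authors gave a signal value, the mean normalized count of the 6 libraries. Estimated change and standard error were deposited in log2 units. A score, the Wald statistic, is their quotient and was deposited too. The p-value and the Benjamini-Hochberg adjusted p-value were deposited for the same comparison, the latter for 15954 genes with a mean of at least 1.60. These authors' columns were used as they stand, since the design allowed for a table of the comparison alone, and values per library were not analysed here.

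Intervals (95%) span 1.96 standard errors to either side, and the p-values reflect only the spread between these cultures. The median standard error of the members was 0.058 on the log2 scale. Named were members called with changes of 0.3 or more in log2 units, listed paralogs and the others by role. The members and lists were chosen with earlier results of these data known. Positions, overlaps and transcript lengths came from GENCODE 44. Alternatives were other filters, Holm adjustment, stricter thresholds, a null of 0.25, centring and shrinkage (prior variance 0.194). The procedure was tested on simulated data. Scripts ran in Python 3.11.15 (pandas 2.3.3, numpy 2.4.6, scipy 1.17.1) and plots were drawn with matplotlib 3.10.9.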

Additional observations from a re-analysis of the deposited data

How the results depend on the processing

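Of the members, 16 were lower and 22 higher with DOX. Under Holm adjustment 8 were lower and 11 higher, a required change of 0.3 on the log2 scale left 10 higher, and against a null of at most 0.25 in size 3 were lower and 4 higher. These alternatives are stricter by construction. The 7 beyond 0.25 were EEF1G, EIF4EBP2, EIF4E2, EEF1D, EIF2S1, EIF3J and EIF1AD. Under the other alternatives run, 11 to 16 members were lower and 16 to 22 higher. The median log2 fold change, 0.083, lay between 0.061 (centred, a shift of 0.022) and 0.087. Of the called among 30 named members none reversed, and EEF1B2, not called, went from 0.002 to -0.019 on centring. Among the 30, Holm adjustment lost EIF4E3, EIF5A2, EEF1A2, EEF1AKMT1, EEF2KMT, EIF4EBP1, EEF1A1 and EIF1. It also lost further calls outside the 30, which are not listed. Centring lost EIF1 and, outside the 30, EIF3I and EIF3K. No paired analysis was possible because no value per library was analysed here. For the same reason leaving out each replicate and a refit with edgeR were not run. Precision falls with expression, and EIF4E3, EEF1A2 and EEF1AKMT4, all with mean normalized counts under 100, have the widest intervals on the log2 scale among the members tested.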
